A study of Mus musculus with 6 samples.

Results

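Antioxidant defence genes were examined in mouse 2-cell embryos with and without removal of their lipid droplets. The 10 genes were taken by symbol: the superoxide dismutases Sod1 and Sod2, the peroxide-removing enzymes Cat, Gpx1, Gpx4 and Prdx1, the glutathione enzymes Gsr and Gclc, and the transcription factor Nfe2l2 with its sensor Keap1. They are 10 of the 48967 genes that received a summed count. A wider list of 80 antioxidant genes, in which the 10 are included, was read from the same comparison.

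Superoxide dismutases turn superoxide into hydrogen peroxide, which catalase, glutathione peroxidases and peroxiredoxins then remove. Glutathione peroxidases spend glutathione, which GCLC helps to make and glutathione reductase regenerates with NADPH. KEAP1 holds the transcription factor NRF2, the product of Nfe2l2, at a low level until oxidants or electrophiles release it, and NRF2 then activates many of the other genes through antioxidant response elements. Cleavage-stage embryos carry transcripts stored by the oocyte together with those of the newly activated genome, and bulk RNA does not separate these sources.

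RNA-seq was done on 6 libraries, 3 control and 3 delipidated, each from a pool of 3 embryos. All embryos were wild type F1 (C57Bl/10 X CBA/H) and were cultured in fatty acid-free KSOM under atmospheric oxygen from 0.5 to 2.0 dpc. Zygotes of the delipidated group were held in cytochalasin B at 50 µg/mL, spun at 4200 × g and then at 9500 × g with sucrose added, and had their droplets aspirated through a laser-made opening in the zona with a pipette of 12 µm inner diameter. Controls are described as cultured in vitro, and no source used here says that they were spun, exposed to cytochalasin B or opened. Loss of lipid and the handling around it therefore cannot be told apart in any value given here. Embryos of several females were mixed before allocation, so p-values measure the spread between pools.

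Counts assigned to genes came to 12164963, 16165958 and 12980787 in control libraries 1 to 3 and to 20059460, 16332103 and 14683741 in delipidated libraries 1 to 3. Delipidated library 1 was the deepest and had the fewest genes with a count. Genes with a count numbered 22855, 22437 and 20582 in the controls and 17091, 19408 and 20158 in the delipidated libraries. Each delipidated library thus had fewer than any control, and the bearing of this on genes of low count was not tested. The deposited values count reads over exonic parts, which are non-overlapping pieces of exons, and a read pair that crosses several parts can add to each of them. Levels are given in CPM, the unit of edgeR's cpm function, in which counts are divided by the library's total over tested genes after TMM scaling. Levels of different antioxidant genes are set side by side in CPM per kilobase, of summed part length unless the most-counted part is named. For marker genes, sums and the most abundant gene are given in CPM, not divided by length.

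Markers of the stage were present in all libraries. The 11 genes of genome activation at the 2-cell stage summed to 544, 269 and 516 CPM in the controls and to 336, 424 and 582 CPM in the delipidated libraries, with Usp17lc, Obox3 or Zfp352 the most abundant and Duxf3 at 0 in delipidated library 1. The 13 maternal oocyte transcripts summed to between 892 and 1446 CPM and none was at 0. Apart from Epcam among the oviduct genes, most genes of other cell types were low, but not equally so in both groups. The 6 stromal genes summed to 17.1, 13.7 and 28.6 CPM in the controls, with Vim the most abundant, and to 0, 0 and 3.81 CPM in the delipidated libraries, where Vim was at 0 throughout. The 11 cumulus and granulosa genes summed to 5.74, 10.3 and 66.7 CPM in the controls and to 1.38, 9.58 and 11.9 CPM in the delipidated libraries. Of the 66.7 CPM in control library 3, Cyp11a1 gave 49.6 CPM, while the granulosa marker Foxl2 and the cumulus marker Ptx3 were at 0 in all 6 libraries. Single genes of these lists did not all follow the sums: Cyp19a1 was highest in delipidated library 3, at 5.44 CPM against 2.28 CPM in control library 3, Tnfaip6 and Amh in delipidated library 2, and Dcn was at 0 in the controls and at 1.91 CPM in delipidated library 3. The study's methods say that cumulus cells were taken off zygotes with hyaluronidase and washing. The 5 sperm genes summed to at most 4.18 CPM, in control library 3, with Prm2 the most abundant. The 5 red blood cell genes summed to 4.05, 3.99 and 4.94 CPM in the controls and to 0, 1.47 and 0.847 CPM in the delipidated libraries, so that the sums did not overlap, with both beta-globin genes at 0 throughout, while Alas2 in delipidated library 2, at 1.47 CPM, was above control libraries 2 and 3. The 5 leukocyte genes summed to at most 6.67 CPM, in delipidated library 1, where Cd74 was the most abundant. Among the 6 oviduct genes, Epcam gave between 82.5 and 221 CPM in every library of both groups. Foxj1, which marks ciliated cells of the oviduct, was at 0 in 4 of the 6 libraries. Ovgp1 had counts in all 6 libraries, from 0.169 CPM in control library 1 to 9.33 CPM in delipidated library 1. Pax8 and Krt7 were highest in delipidated library 3, at 1.41 and 1.34 CPM, and Muc1 in control library 3, at 0.836 CPM. Control library 3 and delipidated library 1 stand apart on these measures, and several values that rest on either are also given without it.

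Across all genes, edgeR's quasi-likelihood test called 0 of 16020 genes, or 0%, with an absolute log2 fold change over 1 and a p-value under 0.05 after Benjamini-Hochberg adjustment, and 0 of the 9 members tested. Cat had too few counts to pass the filter of that fit. DESeq2's Wald test called 49 of 19443 genes, or 0.252%, and limma-voom 0 of 16020, or 0%; neither called a member. In edgeR an unadjusted p-value under 0.05 was reached by 184 genes higher in delipidated embryos (1.15%) and 279 lower (1.74%), and by 0 members in either direction. The control and delipidated libraries did not overlap for 611 genes with higher values after delipidation (3.81%) and 809 with lower values (5.05%), and again for 0 of the 9 members tested. The median log2 fold change was 0.05 over the 9 members and −0.00 over all genes, and its absolute size had a median of 0.27 against 0.34. Members had smaller standard errors, with a median of 0.43 against 0.59 over all genes. For Sod1, Sod2 and Gsr, 3 of the 9, the 95% interval of the log2 fold change lay within 1 on either side of 0. The other 6 were measured less tightly, and a change past the threshold in at least 1 direction lies inside their intervals. A p-value that misses the threshold does not show that values did not differ.

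**Figure D1:**
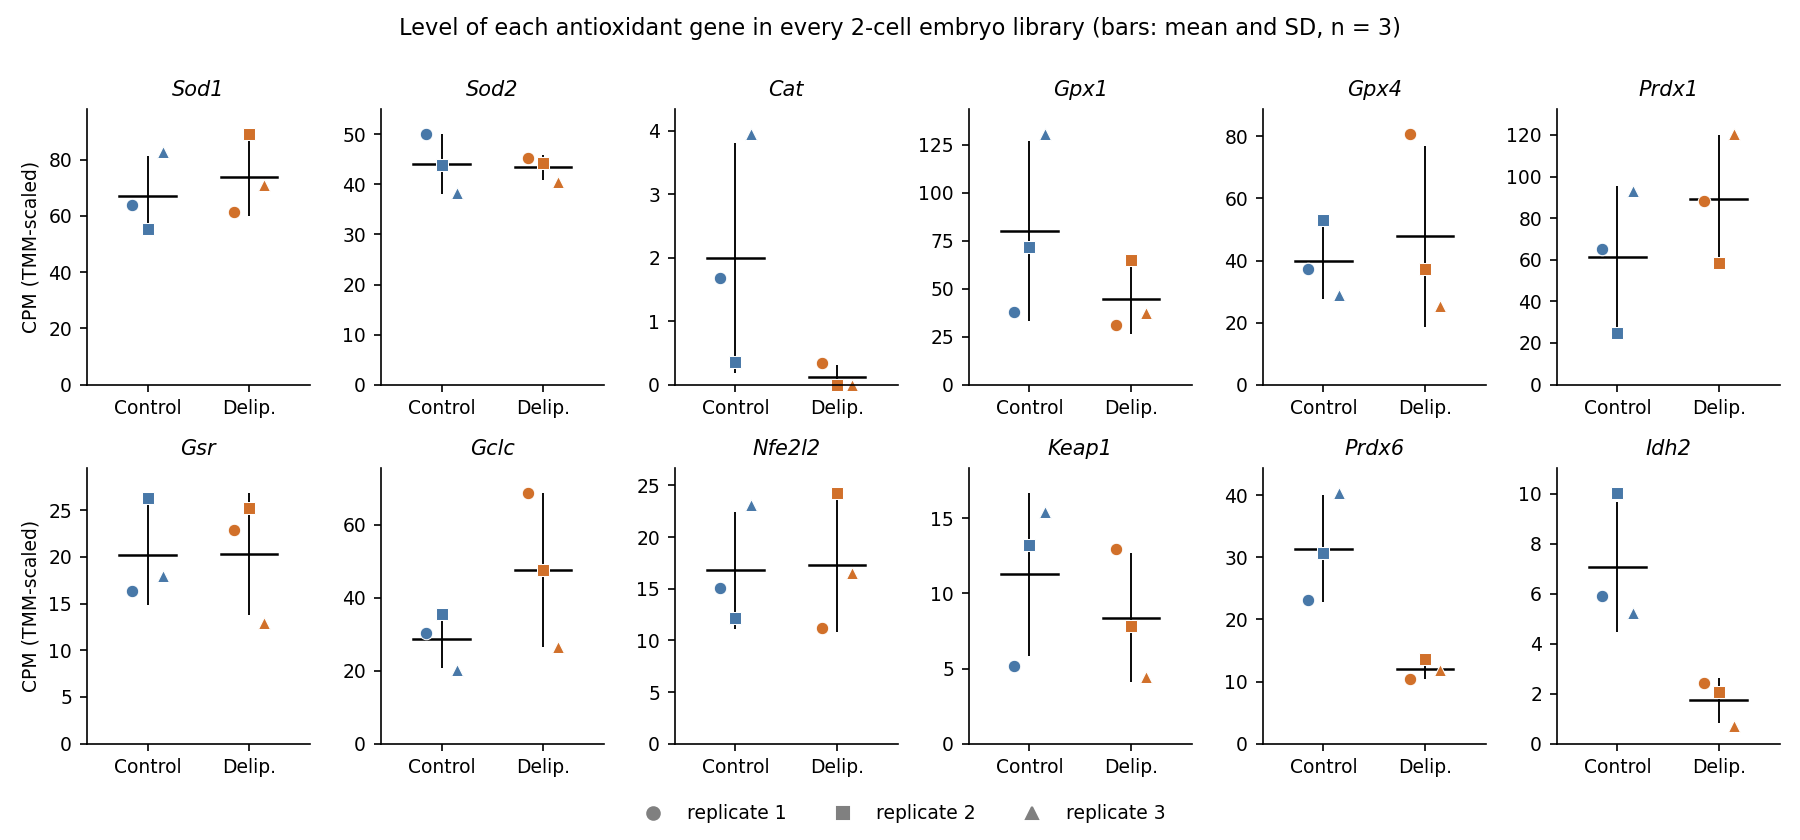
Level in CPM, on axes that start at 0, of the 10 members and of Prdx6 and Idh2 from the wider list in each control (blue) and delipidated (orange) library, with symbols for replicate numbers, a horizontal bar at the mean and a vertical line of 1 SD on each side (n = 3). The groups overlap for the 9 tested members, and do not for Cat, Prdx6 and Idh2.

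Per kilobase, Sod1 was the most abundant member in the controls, at 104 ± 21.6 CPM per kilobase (SD, n = 3), followed by Gpx1 at 55.6 ± 32.6, Gpx4 at 23.0 ± 7.05 and Prdx1 at 20.1 ± 11.3. Sod2 reached 11.5 ± 1.54, Gclc 7.64 ± 2.10, Gsr 7.34 ± 1.94, Nfe2l2 4.42 ± 1.49, Keap1 2.40 ± 1.15 and Cat 0.766 ± 0.695 CPM per kilobase. Sod1 stood above Gpx1 in 6 of 6 libraries. Gpx1 against Gpx4, Gpx4 against Prdx1, Prdx1 against Sod2 and Gclc against Gsr differed by less than the larger of their SDs. Sod1 ranked 404th and Keap1 9205th of the 16020 tested genes on this scale. The order depends on how parts are summed: with the most-counted part of each gene divided by its own length, Sod1 and Gpx1 still came first and Cat last, while Keap1 moved from place 9 to place 6 and Sod2 from place 5 to place 7. The most-counted part of Keap1, from 21230633 to 21230868, is shared with a gene on the opposite strand, so its place 6 is uncertain. That alternative was chosen after seeing the data.

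Sod1 encodes the copper-zinc superoxide dismutase of the cytosol (ENSMUSG00000022982, chromosome 16 of GRCm38, 90220742 to 90226322, plus strand). Its summed counts were 756, 914 and 1086 in the controls and 1246, 1451 and 1006 in the delipidated libraries, or 63.8, 55.3 and 82.5 against 61.5, 89.1 and 71.0 CPM. Each of its 5 parts was counted in every library. The lowest library of all was control 2 and the highest delipidated 2, and the groups overlapped over most of their range. The log2 fold change, delipidated minus control, was 0.14 (standard error 0.28, 95% interval from −0.47 to 0.75), and the adjusted p-value was 1.00 in edgeR.

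Sod2, the manganese enzyme of mitochondria (ENSMUSG00000006818, chromosome 17, 13007839 to 13018119, plus strand), had the narrowest spread of the members relative to its level. It measured 50.1, 43.8 and 38.3 CPM in the controls and 45.4, 44.4 and 40.5 CPM after delipidation, from counts of 594, 725 and 504 and of 919, 722 and 574. All 3 delipidated libraries lay inside the range of the controls. Its log2 fold change was −0.02 (standard error 0.29, 95% interval from −0.66 to 0.61). The copper chaperone Ccs, which loads Sod1, was near the limit of detection with 10, 23 and 27 counts in the controls and 45, 0 and 12 in the delipidated libraries, and extracellular Sod3 was not tested, with a largest count of 8.

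Cat encodes catalase, which splits hydrogen peroxide in peroxisomes (ENSMUSG00000027187, chromosome 2, 103453849 to 103485160, minus strand). It had 20, 6 and 52 counts in the controls and 7, 0 and 0 counts in the delipidated libraries, or 1.69, 0.363 and 3.95 against 0.346, 0 and 0 CPM. All controls lay above all delipidated libraries, but control 2 and delipidated 1 were separated by only 0.363 against 0.346 CPM. A count of 0 is compatible with up to 3 expected counts, which covers counting error only. Over the 6 libraries that is 0.148 to 0.253 CPM, and delipidated libraries 2 and 3, where Cat was at 0, lie inside this range. Counts on single parts were few. The 52 counts of control library 3 were 13 on each of 4 parts between 103460242 and 103467885, which read pairs counted on several exons could give, and the 7 counts of delipidated library 1 were all on the part from 103476749 to 103476920. Of its 17 parts, 9 had no count in any library. The log2 fold change of Cat was −4.04 in DESeq2 (adjusted p-value 0.550, unadjusted 0.0203) and −3.98 in edgeR without its filter on low counts (adjusted p-value 0.718, unadjusted 0.0596). The exact two-sided permutation p on CPM was 0.1, the smallest that 3 against 3 allows. Since the stromal and granulosa sums above were also highest in control library 3, the latter mainly through Cyp11a1, and the red blood cell sums in the controls, their values stand beside this one, and their part in the result was not tested. In bulk samples such as these pools, fewer cells of a type and less RNA per cell cannot be told apart.

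Gpx1 encodes the main cytosolic glutathione peroxidase, a selenoprotein (ENSMUSG00000063856, chromosome 9, 108338903 to 108340343, plus strand). Its counts of 450, 1185 and 1720 in the controls and 632, 1061 and 532 after delipidation gave 38.0, 71.7 and 131 against 31.2, 65.2 and 37.6 CPM. Control libraries 2 and 3 were above all delipidated libraries, whereas control library 1 lay between them. Among the 9 tested members it had the lowest log2 fold change, −0.84 (standard error 0.44, 95% interval from −1.80 to 0.11). The unadjusted edgeR p-value was 0.0789, the exact permutation p was 0.2, and the edgeR adjusted p-value was 1.00. Without its filter on low counts edgeR gave an adjusted p-value of 0.718 (unadjusted 0.00715), and DESeq2 one of 0.741 (unadjusted 0.0542). Without control library 3, the library with the highest stromal and granulosa sums, the log2 fold change was −0.30, against −1.22 without delipidated library 2, and the part of those cells in the result was not tested.

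Gpx4 encodes the glutathione peroxidase that reduces lipid hydroperoxides within membranes and is needed for embryonic survival (ENSMUSG00000075706, chromosome 10, 80047166 to 80056439, plus strand). It measured 37.3, 52.9 and 29.0 CPM in the controls and 80.8, 37.2 and 25.4 CPM in the delipidated libraries, from counts of 442, 875 and 381 and of 1637, 606 and 360. Delipidated library 1 was the highest of the 6 and delipidated library 3 the lowest. For this gene the log2 fold change was 0.27 (standard error 0.43, 95% interval from −0.68 to 1.22). Its direction rested on delipidated library 1: without that library the log2 fold change was −0.34.

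The parts of Gpx4 separate its alternative first exons. The part from 80053488 to 80053715 is the first exon of the transcript that encodes the cytosolic and mitochondrial forms, and held 33, 38 and 27 counts in the controls and 21, 21 and 24 in the delipidated libraries. The first exon of the nuclear form known from sperm, split into parts from 80054037 to 80054170 and from 80054171 to 80054300, held 2, 0 and 0 counts on the former part in the controls and 0, 0 and 1 in the delipidated libraries, and 2, 0 and 0 against 23, 0 and 1 on the latter. Farther upstream, the part from 80047166 to 80047375 had no count in any library, and the part from 80048746 to 80048828 had 19 counts in delipidated library 1 and none in the other 5. Scaled to depth, the part of the cytosolic and mitochondrial first exon measured 2.78, 2.30 and 2.05 CPM in the controls and 1.04, 1.29 and 1.69 CPM after delipidation. The high total of delipidated library 1 is therefore not seen at this exon, where that library was the lowest, but on downstream parts, such as 19.9 CPM on the part from 80054968 to 80055107 against 6.14 to 13.7 CPM in the other 5. The parts were compared after their values had been seen, and no test was made on them. In delipidated library 1 the parts from 80055108 to 80055119, from 80055923 to 80055947 and from 80056040 to 80056099 held 219, 219 and 220 counts. They held 75, 75 and 75 in delipidated library 2 and 12, 26 and 41 in delipidated library 3. In the controls they held 25, 25 and 36 in library 1, 86, 86 and 97 in library 2, and 23, 23 and 25 in library 3. Read pairs counted on several of these parts could give such equal counts, but single reads were not traced.

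**Figure D2:**
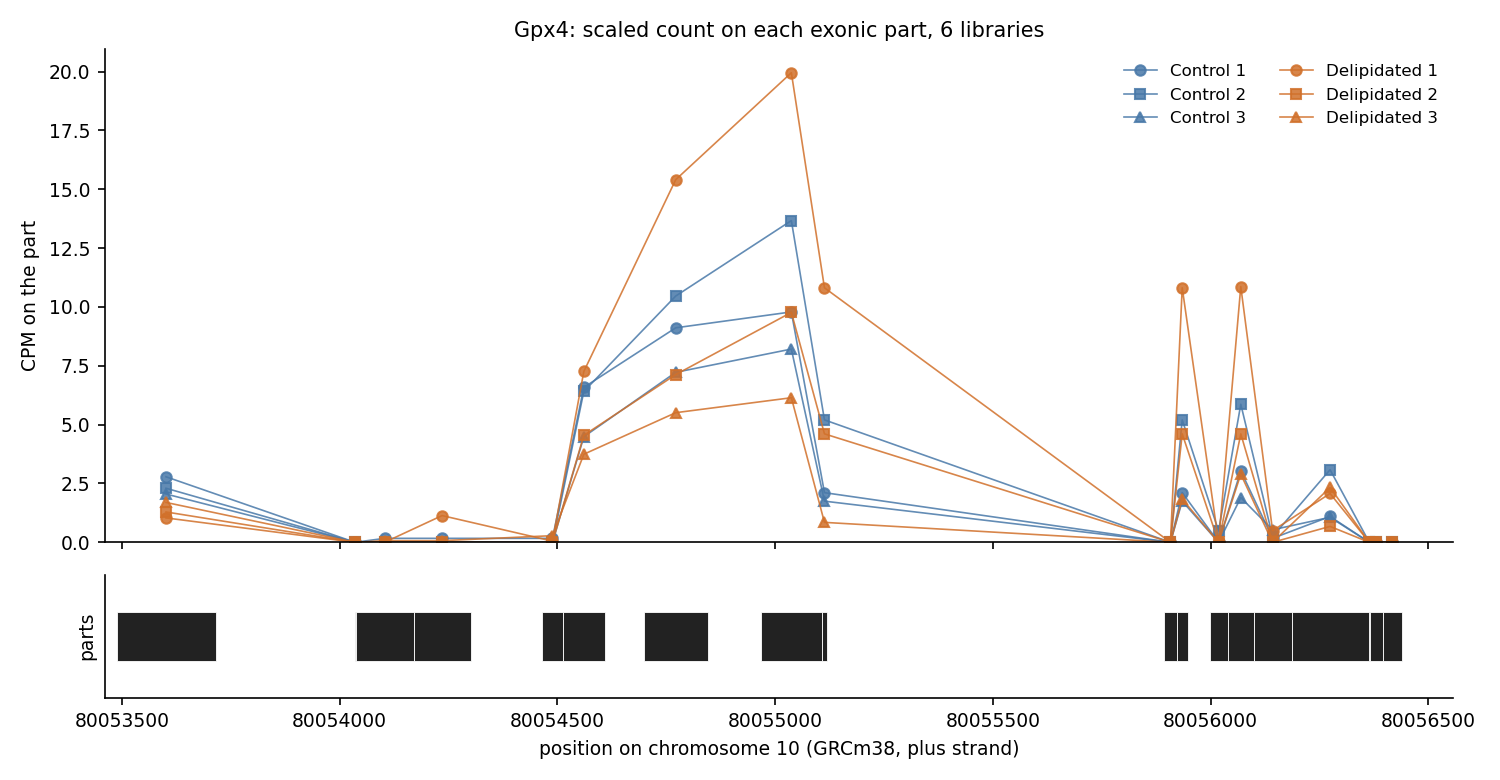
Scaled count in CPM on each exonic part of Gpx4 from 80053488 onward, at the middle of the part on chromosome 10, for 3 control (blue) and 3 delipidated (orange) libraries; lines join the parts of a library, and the lower panel draws the parts to scale. Delipidated library 1 is the highest on the part from 80054968 to 80055107, at 19.9 CPM, and the lowest on the part from 80053488 to 80053715, at 1.04 CPM.

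The stretches in front of both first exons are shown because the exon of the cytosolic and mitochondrial forms held counts in every library, while that of the nuclear form held 23 in delipidated library 1 and at most 2 on either part in the others. They come from the RefSeq promoter table for GRCm38.p6, plus strand, chr10:80053315-80053487 and chr10:80053761-80054010, and stop before the first exon base or the RefSeq start.
Gpx4 cytosolic and mitochondrial form: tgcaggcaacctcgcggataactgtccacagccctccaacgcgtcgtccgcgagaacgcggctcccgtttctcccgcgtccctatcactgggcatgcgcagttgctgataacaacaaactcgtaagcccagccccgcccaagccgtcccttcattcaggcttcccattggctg
Gpx4 nuclear form: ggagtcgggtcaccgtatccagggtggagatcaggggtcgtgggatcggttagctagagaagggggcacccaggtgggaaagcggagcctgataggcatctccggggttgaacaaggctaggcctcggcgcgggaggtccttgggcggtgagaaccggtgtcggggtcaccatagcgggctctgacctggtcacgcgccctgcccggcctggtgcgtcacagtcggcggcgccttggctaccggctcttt

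Prdx1 encodes a thioredoxin-dependent peroxidase of the cytosol and nucleus (ENSMUSG00000028691, chromosome 4, 116685544 to 116700822, plus strand). It measured 65.4, 24.8 and 93.2 CPM in the controls and 88.3, 58.4 and 121 CPM in the delipidated libraries, from counts of 775, 410 and 1226 and of 1788, 950 and 1707. Control library 2 was well below the rest and delipidated library 3 the highest, with overlap between them. Between the groups the log2 fold change was 0.54 (standard error 0.43, 95% interval from −0.41 to 1.49). Without control library 2 it was 0.17 and without control library 3 it was 0.98.

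Gclc encodes the catalytic subunit of glutamate-cysteine ligase, the rate-limiting enzyme of glutathione synthesis (ENSMUSG00000032350, chromosome 9, 77754535 to 77794485, plus strand). Counts of 361, 590 and 265 in the controls and 1392, 774 and 375 after delipidation corresponded to 30.5, 35.7 and 20.1 against 68.7, 47.5 and 26.5 CPM. Delipidated libraries 1 and 2 were above all controls and delipidated library 3 lay within them. It had the highest log2 fold change of the members, 0.73 (standard error 0.40, 95% interval from −0.15 to 1.61). The unadjusted edgeR p-value was 0.0970, the exact permutation p was 0.3, and the edgeR adjusted p-value was 1.00. Without delipidated library 1 the log2 fold change was 0.36, and on the most-counted part alone it was 0.33. Without delipidated library 3 it was 1.01 (edgeR adjusted p-value 0.863, unadjusted 0.0189).

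Gsr, glutathione reductase (ENSMUSG00000031584, chromosome 8, 33652523 to 33698163, plus strand), measured 16.4, 26.3 and 17.9 CPM in the controls and 22.9, 25.2 and 12.9 CPM in the delipidated libraries, from counts of 194, 435 and 236 and of 463, 410 and 183. Delipidated libraries 1 and 2 lay inside the control range and library 3 below it. Its log2 fold change was 0.01 (standard error 0.42, 95% interval from −0.91 to 0.93). A value this near 0 has no direction, and its sign changed between settings.

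Nfe2l2 encodes NRF2 (ENSMUSG00000015839, chromosome 2, 75675513 to 75704641, minus strand). It measured 15.1, 12.2 and 23.1 CPM in the controls and 11.2, 24.3 and 16.5 CPM after delipidation, from counts of 179, 201 and 304 and of 227, 395 and 234. Each group spanned nearly the same range. For this gene the log2 fold change was 0.05 (standard error 0.46, 95% interval from −0.96 to 1.05). NRF2 is controlled mainly through the stability of the protein, which these data do not measure.

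Keap1 (ENSMUSG00000003308, chromosome 9, 21229730 to 21239361, minus strand) is uncertain. It measured 5.15, 13.2 and 15.4 CPM in the controls and 12.9, 7.80 and 4.45 CPM in the delipidated libraries, from counts of 61, 219 and 203 and of 262, 127 and 63. Between the groups the log2 fold change was −0.42 (standard error 0.60, 95% interval from −1.75 to 0.90). It was −0.13 without control library 3, −0.88 without delipidated library 1 and −0.12 without delipidated library 3. On the opposite strand lies Gm16754 (ENSMUSG00000097439, 21225371 to 21233046), and 3 of the 20 Keap1 parts, with 46.3% of its counts, overlap parts of that gene. The counts do not separate strands: where parts of opposite strands cover identical bases, which was the case for 11 pairs with a summed count of at least 10, the smaller count divided by the larger had a median of 1. On the other 17 parts Keap1 had 47, 142 and 133 counts in the controls and 90, 56 and 34 in the delipidated libraries, or 3.97, 8.59 and 10.1 against 4.44, 3.44 and 2.40 CPM. Control libraries 2 and 3 were above all delipidated libraries there and control library 1 was not. No test was made on these parts.

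**Figure D3:**
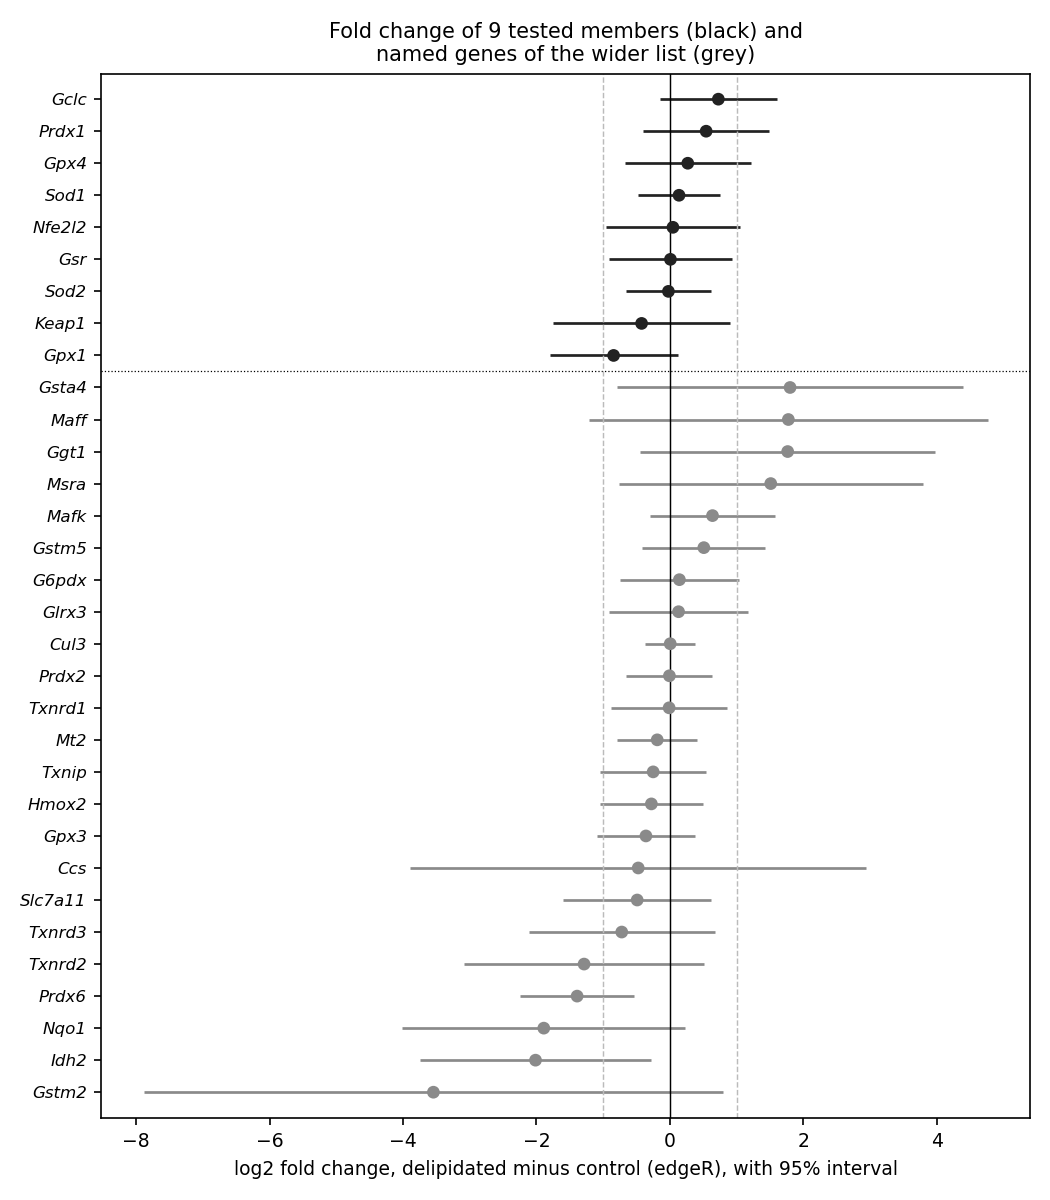
Log2 fold change, delipidated minus control, with its 95% interval from the edgeR fit, for the 9 tested members (black) and the genes named from the wider list (grey); dashed lines mark 1 on either side of 0. Intervals of all 9 members include 0, and those of Prdx6, from −2.25 to −0.53, and Idh2, from −3.74 to −0.28, do not, before adjustment for the number of genes tested.

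Of the 80 genes of the wider list, 64 were tested, and edgeR called 0 higher and 0 lower. DESeq2's Wald test and limma-voom also called 0 of the list. At an unadjusted p-value under 0.05, edgeR found 0 higher and 2 lower. Among the 64 tested, the groups did not overlap for 1 gene with higher and 3 with lower values after delipidation. Over all genes the shares were 3.81% and 5.05%. The median log2 fold change was −0.07, with 27 genes above 0 and 37 below, against 8004 above and 8016 below over all genes. An absolute log2 fold change over 1 was found for 13 of the 64, or 20.3%, and for 16.6% of all genes. Among the genes named from the list other than the members, an unadjusted p-value under 0.05 was also reached in the alternatives. These were Nqo1 in DESeq2, Gsta4 in limma-voom, and Ggt1, Gstm2 and Gsta4 in edgeR without its filter on low counts. Over all genes it was reached by 1341 in DESeq2, where 19443 had an adjusted p-value. In limma-voom it was reached by 619 of 16020 genes, and in edgeR without the filter by 1214 of 30967.

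Prdx6 had the smallest p-value of the list. It encodes a peroxiredoxin that uses glutathione to reduce peroxidised phospholipids (ENSMUSG00000026701, chromosome 1, 161240112 to 161251219, minus strand). Its levels were 23.2, 30.7 and 40.4 CPM in the controls and 10.4, 13.6 and 11.9 CPM in the delipidated libraries, from counts of 275, 507 and 531 and of 211, 221 and 169. All 3 delipidated libraries lay below all 3 controls. Its log2 fold change was −1.39 (standard error 0.39), the unadjusted edgeR p-value was 0.00422, and the exact permutation p was 0.1. Adjusted over all genes the p-value was 1.00 in edgeR, 0.989 in limma and 0.0711 in DESeq2. With any 1 library left out the log2 fold change lay between −1.56 and −1.17, and without control library 3 and delipidated library 1 together it was −1.08. On the most-counted part it was −2.16. Lower values were not seen along the whole gene. Between 161241015 and 161241563, controls gave 28, 47 and 19 counts against 49, 7 and 48 after delipidation, so that the groups overlapped. Between 161248605 and 161249358, controls gave 0, 3 and 0 against 41, 1 and 0. Both stretches were picked after their counts had been seen, and neither was tested.

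Prdx2 was the most abundant gene of its group, at 66.4 ± 18.8 CPM per kilobase in the controls (SD, n = 3), with 173, 166 and 269 CPM against 140, 176 and 290 CPM and a log2 fold change of −0.01. Of the 7 genes in the group 7 were tested, 2 with a log2 fold change above 0 and 5 below, and the median was −0.05. Whether Prdx6 differs from Prdx1 or Prdx2 in its response was not tested.

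Idh2, which supplies NADPH in mitochondria, was the other gene with an unadjusted p-value under 0.05 (ENSMUSG00000030541, chromosome 7, 80094846 to 80115392, minus strand). It had 70, 166 and 69 counts in the controls and 49, 34 and 10 in the delipidated libraries, or 5.91, 10.0 and 5.24 against 2.42, 2.09 and 0.706 CPM. The groups did not overlap. For this gene the log2 fold change was −2.01 (standard error 0.79), the unadjusted edgeR p-value 0.0262, the exact permutation p 0.1 and the edgeR adjusted p-value 1.00. Without delipidated library 3 it was −1.65 (edgeR adjusted p-value 0.863, unadjusted 0.0692). The counts are low, and delipidated library 3 had a count on 5 of its 30 parts. Of the 5 genes of NADPH supply, 4 were tested, 1 with a log2 fold change above 0 and 3 below, and the median was −0.60. G6pdx, the entry enzyme of the pentose phosphate pathway, was the most abundant NADPH gene, with 316, 134 and 223 CPM in the controls and 156, 156 and 431 CPM after delipidation, and a log2 fold change of 0.14, which was −0.52 without delipidated library 3 and −0.12 without control library 2.

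In the group of inducible NRF2 targets, 7 of 7 genes were tested. Of these, 1 had a log2 fold change above 0 and 6 below, and the median was −0.20. The group does not hold every gene that NRF2 can activate. The members Gclc and Prdx1 were placed in other groups and had log2 fold changes of 0.73 and 0.54. The quinone reductase Nqo1, a standard readout of NRF2 activity, had 1.94, 3.14 and 8.89 CPM in the controls and 1.38, 1.66 and 0.706 CPM in the delipidated libraries. Its groups did not overlap, the log2 fold change was −1.89 (standard error 0.97), the exact permutation p was 0.1 and the adjusted edgeR p-value 1.00. Without control library 3 the log2 fold change was −1.03, and without control library 1 it was −2.25. The cystine transporter gene Slc7a11 had a log2 fold change of −0.49 (standard error 0.51), between −0.98 and −0.14 with any 1 library left out and −0.05 on the most-counted part. The thioredoxin reductase gene Txnrd1, the most abundant of the group, had one of −0.01 (standard error 0.39). The stromal and red blood cell sums were higher in the controls, as were Prdx6, Idh2 and Nqo1, and the granulosa sum was highest in control library 3 mainly through Cyp11a1, and the part of other cells in these results was not tested.

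For the axis of KEAP1 and NRF2, 11 of 11 genes were tested, 7 above 0 and 4 below, with a median log2 fold change of 0.05. Cul3, the ubiquitin ligase subunit that KEAP1 brings to NRF2, was the most abundant, at 729, 728 and 727 CPM in the controls and 784, 817 and 590 CPM in the delipidated libraries, with a log2 fold change of 0.01 (standard error 0.17). Mafk and Maff, which encode small MAF proteins that partner NRF2 on DNA, had the smallest p-values of the axis, and Mafg, which encodes another, had a log2 fold change of 0.06. Mafk had 19.7, 36.6 and 17.0 CPM against 55.9, 33.8 and 24.5 CPM, and a log2 fold change of 0.64 (standard error 0.43). Without delipidated library 1 Mafk was at 0.25, without control library 2 at 1.05, and without control library 3 and delipidated library 1 together at 0.05. Maff, at 1.78 (standard error 1.36), rested on 6, 20 and 1 counts against 62, 32 and 17. It was 2.81 without control library 2 and 0.87 without control library 3 and delipidated library 1 together.

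Glutathione synthesis, reduction and glutaredoxin genes numbered 10, all tested, with 5 above 0 and 5 below and a median log2 fold change of −0.05. Beside Gclc the smallest p-value was that of Ggt1, a transferase that breaks down extracellular glutathione, with counts of 8, 110 and 36 against 393, 15 and 200 and a log2 fold change of 1.77 (standard error 1.01), or 1.15 without delipidated library 1 and 2.74 without control library 2. Delipidated library 2 had fewer Ggt1 counts than control libraries 2 and 3. Glrx3, with a log2 fold change of 0.13, or −0.55 without delipidated library 1, had the highest mean level of this group per kilobase, 13.5 ± 7.24 CPM in the controls (SD, n = 3), which differed from that of Glrx5, 9.83 ± 1.41, by less than the larger SD.

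Glutathione peroxidases were tested for 5 of 8 genes, 1 above 0 and 4 below, with a median log2 fold change of −0.57. Gpx3, the secreted form, measured 44.0, 45.7 and 45.8 CPM in the controls and 26.8, 29.7 and 49.3 CPM in the delipidated libraries, so that delipidated library 3 lay above the controls and the other two below them. Its log2 fold change was −0.36 (standard error 0.33), −0.19 without delipidated library 1, −0.68 without delipidated library 3 and −0.04 on the most-counted part.

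Glutathione transferases were mostly at the edge of detection, with 7 of 14 tested, 3 above 0 and 4 below, and a median of −0.43. Gstm2 had 0, 86 and 76 counts in the controls and 0, 15 and 0 in the delipidated libraries. Gsta4 had 71, 0 and 20 counts in the controls and 108, 162 and 153 in the delipidated libraries. In CPM the groups of each gene overlapped, for Gsta4 through control library 1 at 5.99 and delipidated library 1 at 5.33 CPM. The log2 fold change of Gstm2, −3.55, lay between −4.13 and −2.95 with 1 of the other 5 libraries left out, and without delipidated library 2 no count is left in its group, so no value is given. With any 1 library left out that of Gsta4, 1.80, lay between 1.21 and 3.54. Gstm5, at 13.0 ± 4.07 CPM per kilobase in the controls (SD, n = 3), and Mgst3, at 12.9 ± 2.95, were the most abundant of the group and differed by less than their SDs. By the most-counted part Mgst3 was the higher of them. Gstm5 had a log2 fold change of 0.51, between 0.27 and 0.77 with any 1 library left out.

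In the thioredoxin system 6 of 6 genes were tested, 2 above 0 and 4 below, with a median of −0.13. Mitochondrial Txnrd2 had a log2 fold change of −1.29 (standard error 0.82), from counts on 9, 15 and 7 of its 47 parts in the controls and on 3, 13 and 4 in the delipidated libraries. It was −2.33 without delipidated library 2 and −0.87 without control library 2. Txnrd3 had one of −0.72 (standard error 0.64), which was 0.05 without control library 3, −1.45 without delipidated library 3 and 0.35 without control library 3 and delipidated library 1 together. Txnip, which binds and inhibits thioredoxin, was the most abundant of the 6 per kilobase of summed parts, with a log2 fold change of −0.25, or 0.03 without delipidated library 2, while by the most-counted part Txn2 and Txnrd1 were above it.

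In the group of repair enzymes and others, 8 of 11 genes were tested, 4 above 0 and 4 below, with a median of −0.01. The methionine sulfoxide reductase gene Msra was the gene of the list whose delipidated libraries all lay above the controls, with 20, 10 and 16 counts against 114, 30 and 36, a log2 fold change of 1.51 (standard error 1.04) and an exact permutation p of 0.1. Without delipidated library 1 it was 0.91, and without control library 1 it was 1.89. Of the 19 parts of Msra, 4, 4 and 3 had a count in the controls and 3, 2 and 3 in the delipidated libraries. The most-counted part, from 64440710 to 64440917, had 5, 0 and 8 counts against 49, 15 and 0, so that the groups overlapped there. The metallothionein gene Mt2 was the most abundant of the whole list by summed parts, at 183 ± 37.3 CPM per kilobase in the controls (SD, n = 3), but not by the most-counted part, where it was at 137 and Cul3 at 400 CPM per kilobase, and it had a log2 fold change of −0.19, or 0.01 without delipidated library 3. The haem oxygenase gene Hmox2 had a log2 fold change of −0.28, which was −0.04 without control library 1 and −0.04 on the most-counted part.

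Too few counts for the edgeR test were found for 16 genes of the list, 1 of them a member. Among these, the groups did not overlap for Cat and for Gsta2. The shares over all genes given above cover tested genes only, and none was computed for genes with too few counts. Fewer genes had a count in each delipidated library than in any control. Gsta2 had 4, 11 and 7 counts in the controls and 0, 0 and 0 in the delipidated libraries. Sod3 had a largest count of 8, Cat 52, Gpx2 1, Gpx5 0, Gpx8 3, Gsta1 0, Gsta2 11, Gstm1 12, Gstt1 17, Gstk1 51, Mgst1 76, Mgst2 3, Nnt 40, Msrb2 32, Aifm2 72 and Blvrb 15 counts in a library.

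The core of the antioxidant response element, TGACNNNGC, was searched on both strands in the 250 bases before each RefSeq start. Of the 10 members, 8 had an entry, with 11 starts in all; Gsr and Gclc had none. The core was found for Prdx1, Sod1 and Nfe2l2, that is at 3 of 11 starts, beside 15 of 96 for the wider list and 3338 of 32851, or 10.2%, for all promoters. In Prdx1 it begins 133 bases before the start, in Sod1 56 and in Nfe2l2 240. In Prdx1 and Sod1 the letters lie on the opposite strand, so that the capitals below show the complement read backwards. A match describes letters, not binding, and these 3 genes had log2 fold changes of 0.54, 0.14 and 0.05. The 3 stretches, from GRCm38.p6, end before the first annotated exon base or the start, and capitals mark the core. They lie at chr4:116685349-116685543 on the plus strand, chr16:90220512-90220741 on the plus strand and chr2:75704664-75704913 on the minus strand.
Prdx1: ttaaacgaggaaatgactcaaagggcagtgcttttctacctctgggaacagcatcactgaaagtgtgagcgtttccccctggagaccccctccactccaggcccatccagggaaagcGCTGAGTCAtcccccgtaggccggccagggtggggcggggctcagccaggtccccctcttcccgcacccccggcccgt
Sod1: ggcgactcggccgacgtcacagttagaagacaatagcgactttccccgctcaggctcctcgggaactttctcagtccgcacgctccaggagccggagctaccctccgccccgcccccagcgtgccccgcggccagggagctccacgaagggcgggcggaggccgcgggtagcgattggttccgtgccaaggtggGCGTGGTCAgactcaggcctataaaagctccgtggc
Nfe2l2: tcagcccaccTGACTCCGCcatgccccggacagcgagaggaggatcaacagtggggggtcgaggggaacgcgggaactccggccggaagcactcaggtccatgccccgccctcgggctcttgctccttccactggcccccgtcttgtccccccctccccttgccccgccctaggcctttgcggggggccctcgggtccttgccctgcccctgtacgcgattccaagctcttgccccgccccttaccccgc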

How the data were processed

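Total RNA of embryo pools was made into strand-specific libraries with depletion of ribosomal RNA. Per the submitters' notes, reads were converted with bcl2fastq 2.20, trimmed with Trimmomatic 0.36, aligned to mm10 with STAR 2.5.2b and assigned to features by featureCounts. Counts of unique reads per exonic part, not normalised, were used as deposited by the authors. Of 49644 gene identifiers, 49298 had a symbol. Parts were summed per gene; 33309 parts carried joined identifiers, of which 27968 overlapped the exons of a single gene and were assigned to it, and the rest, 2.49% to 2.57% of a library, was left out. A sum can count a read pair more than once, and the effect of this on the intervals was not tested.

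Genes were tested with edgeR 4.0.16 in R 4.3.3 (filterByExpr, min.count 10, min.total.count 15; TMM, quasi-likelihood test, no covariates), with Benjamini-Hochberg adjustment over all genes tested. The 95% intervals use the standard error and degrees of freedom of that fit. Exact two-sided permutation tests used log2 CPM over 20 assignments, and CPM for Cat. DESeq2 1.42.0 with its default independent filtering, limma-voom (limma 3.58.1), other size factors, filters and ways of summing, a replicate block and each library left out were alternatives. The test functions were tested on simulated data, with a limit on the share of false calls for edgeR and limma but not for DESeq2. With 3 against 3 and a wide spread between libraries, DESeq2's Wald test can call too many genes. Tables were made with Python 3.11.15 and pandas 2.3.3. The members and lists were chosen with earlier results of these data known. From each role group of the wider list, the text names genes past the threshold or with an unadjusted p-value under 0.05, otherwise the 2 with the smallest p-values, and the most abundant per kilobase; Nfe2l2 and Keap1 are named as members.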

Additional observations from a re-analysis of the deposited data

How the results depend on the processing

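No member and no gene of the wider list was called in any of the alternatives. Over all genes DESeq2's Wald test called 49 (9 higher and 40 lower in delipidated embryos), edgeR without the filter on low counts 30 (5 higher and 25 lower), and the other alternatives 0. Of the alternatives, those without control library 3 and delipidated library 1 together, and levels from the most-counted part divided by its own length, were chosen after seeing the data, and so was running any alternative for single genes of the wider list. The median log2 fold change of the members was 0.05, lay between −0.05 and 0.16 with any 1 library left out, and was −0.10 without both of those libraries.

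Of the 9 members tested, 5 changed sign when a library was left out. The log2 fold change of Sod1 ranged from −0.0206 to 0.31, of Sod2 from −0.12 to 0.0893, of Gpx4 from −0.34 to 0.57, of Gsr from −0.18 to 0.25 and of Nfe2l2 from −0.28 to 0.34. Without both libraries Gpx4 was at −0.53, Gsr at −0.17, Gpx1 at −0.10, Gclc at 0.16, Nfe2l2 at 0.58, Prdx1 at 0.99, Sod1 at 0.42, Sod2 at −0.15 and Keap1 at −0.59. Gsr was at −0.0117 with library totals alone and at −0.0178 in limma-voom.

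In the wider list, Ccs ranged from −1.74 to 0.10 with a library left out, Prdx2 from −0.36 to 0.25, Txnrd3 from −1.45 to 0.0465, Txnip from −0.55 to 0.0276, Glrx3 from −0.55 to 0.67, Cul3 from −0.0848 to 0.13, Txnrd1 from −0.21 to 0.18, G6pdx from −0.52 to 0.49 and Mt2 from −0.34 to 0.0111. Without both libraries Prdx2 was at 0.46, Txnrd3 at 0.35, Glrx3 at −0.76, Cul3 at −0.0555 and Txnrd1 at 0.26. On the most-counted part Txnip was at 0.0572, Glrx3 at −0.28 and Cul3 at −0.13, and with library totals alone Cul3 was at −0.0129. The cause was not tested.

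With a replicate block, which treats libraries of the same number as paired, 0 genes were called, the median of the members was 0.02, Gsr was at −0.0176 and Cul3 at −0.0094. The correlations of same-numbered libraries, −0.08, 0.07 and 0.04, give no sign that the numbers pair them.

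By the most-counted part, control levels in CPM per kilobase were 236 for Sod1, 125 for Gpx1, 92.5 for Prdx1, 75.4 for Gpx4, 24.5 for Gsr, 7.62 for Keap1, 4.62 for Sod2, 3.92 for Gclc and 2.30 for Cat.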
